A study of Mus musculus with 89 samples.

Results

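The cytosolic chaperonin, called CCT or TRiC, is built from 8 different subunits in mammals, and in mouse these are the products of Tcp1, Cct2, Cct3, Cct4, Cct5, Cct6a, Cct7 and Cct8. These 8 genes of the 24411 in the deposited tables are described here in single cells of the mouse dentate gyrus. They were taken by name, and all 8 had reads in enough cells to be measured in every comparison. The family was picked with earlier results on these cells known, so every difference between classes given here is a description.

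CCT is a barrel of stacked rings, each ring holding one copy of every subunit. It takes up newly made actin and tubulin, handed over by the co-chaperone prefoldin, and folds them in a closed chamber with energy from ATP. It also folds activators of the anaphase-promoting complex, G protein beta subunits and other WD-repeat proteins. In yeast the ring has a side that binds ATP tightly (the counterparts of Tcp1, Cct2, Cct4 and Cct5) and a side that binds it weakly (the counterparts of Cct3, Cct6a, Cct7 and Cct8). Loss of any of the subunit genes is lethal in yeast.

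The promoters of the subunits are shown here because the genes lie on 8 chromosomes while their products are needed in equal number in the ring. RefSeq windows (build GRCm38.p6) of 250 bases before to 50 bases after the start were at hand for 7 of the 8 genes, in 9 windows. The lines below give the 250 bases before the start for Cct5, which had the largest difference between active and quiescent stem cells, and for 3 subunits of the other side of the ring. Each is written 5′ to 3′ on the strand of its gene. Cct5 is chr15:31601847-31602096 on the minus strand, Cct6a is chr5:129787106-129787355 on the plus strand, Cct7 is chr6:85451255-85451504 on the plus strand, and Cct8 is chr16:87495870-87496119 on the minus strand. Capitals mark the CCAAT box on either strand (CCAAT or ATTGG) in Cct6a and Cct7 and the core of an ETS factor motif (CCGGAAG) in Cct8, while Cct5 holds neither in this window.
Cct5: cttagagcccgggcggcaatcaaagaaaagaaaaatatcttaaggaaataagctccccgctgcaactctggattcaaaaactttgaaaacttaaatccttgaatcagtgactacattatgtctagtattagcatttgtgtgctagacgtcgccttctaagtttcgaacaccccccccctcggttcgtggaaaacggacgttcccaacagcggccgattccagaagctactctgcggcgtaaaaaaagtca
Cct6a: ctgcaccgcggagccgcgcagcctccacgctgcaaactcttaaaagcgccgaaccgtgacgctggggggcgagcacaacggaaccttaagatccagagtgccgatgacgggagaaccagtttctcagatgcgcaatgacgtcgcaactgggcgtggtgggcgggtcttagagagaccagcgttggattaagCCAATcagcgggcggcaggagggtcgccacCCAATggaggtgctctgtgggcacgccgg
Cct7: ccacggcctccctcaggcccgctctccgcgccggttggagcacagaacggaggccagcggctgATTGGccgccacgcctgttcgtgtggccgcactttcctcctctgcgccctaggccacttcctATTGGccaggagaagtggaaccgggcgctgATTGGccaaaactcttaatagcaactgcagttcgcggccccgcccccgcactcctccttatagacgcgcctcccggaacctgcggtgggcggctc
Cct8: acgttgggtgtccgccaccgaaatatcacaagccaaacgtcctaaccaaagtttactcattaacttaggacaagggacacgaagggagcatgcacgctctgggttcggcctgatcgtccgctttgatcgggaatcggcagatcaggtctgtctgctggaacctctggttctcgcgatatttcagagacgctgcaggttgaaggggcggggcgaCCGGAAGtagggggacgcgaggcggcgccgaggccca

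Cct7 had CCAAT boxes at 95, 125 and 187 bases before its start, Cct6a at 29 and 59, and Cct3 at 33 and 74. Over all windows of the same length, and on both strands, CCAAT stood in 37.4% of 32851 and in 4 of the 9 windows of CCT genes. The GC box GGGCGG stood in 35.7% of all windows and in 8 of the 9. The ETS core CCGGAAG was in 8.86% of all windows and in 3 of the 9, those of Cct2, Cct8 and Tcp1. A heat shock element, GAANNTTC, was in 7.86% of all windows and in 1 of the 9, at Cct2. The letters TATAAA, TGACGTCA and CACGTG were in none of the 9, against 13.6%, 1.79% and 7.15% of all windows. GC boxes can overlap the other motifs, and a match is a match of letters only.

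The cells came from the dentate gyrus of homozygous Nestin:CFPnuc mice on C57BL/6, whose transgene puts a cyan fluorescent protein in the nucleus under the Nestin promoter, so the sorted cells are those in which this promoter is or was recently active. Each sample is 1 cell, amplified and sequenced alone. The authors' own table gives each cell a class, read here as IPC (intermediate progenitor cell), aNSC (activated neural stem cell) and qNSC (quiescent neural stem cell), and a colour, named here blue, red and green for the qNSC. How class and colour were assigned is not given in the sources used here, and if they came from the same transcriptomes, part of any difference between them is built in. The aNSC cells were split at 10 counts of Pdgfra, a receptor that marks oligodendrocyte precursors. The split was not close to its threshold, with 531 to 3057 counts in the positive cells and 0 in every negative cell. The groups were 11 IPC (6 of 4.5 months and 5 of 2 months), 7 Pdgfra-positive aNSC (3 and 4), 11 Pdgfra-negative aNSC (4 and 7), 9 blue qNSC (5 and 4), 26 red qNSC (13 and 13) and 25 green qNSC (10 and 15).

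No label ties a cell to a mouse, so each age counts as 1 sample and no test was run. Values carry the SD over cells, which is not the spread between mice. The median cell had 912391 counts in all, and the range was 234607 to 1896074. The median number of genes with a read was 4647 in IPC, 4999 in Pdgfra-positive aNSC, 4145 in Pdgfra-negative aNSC, 3405 in blue, 3724 in red and 3842 in green qNSC, and the part that this plays in the differences below was not tested. Pdgfra, which set the split, is in the list of 8 oligodendrocyte precursor markers. Of these, all 8 had at least 10 counts in the median Pdgfra-positive aNSC and 1 did in the median Pdgfra-negative aNSC. Of 7 intermediate progenitor markers, 5 did in the median IPC and 0 in the median cell of the other groups. Of 9 quiescent stem cell markers, 7 did in the median red and green qNSC and 5 in the median blue qNSC. At least 50% of the markers of another cell type had 10 or more counts in 8 cells. These were 1 Pdgfra-positive and 1 Pdgfra-negative aNSC, and 2 blue, 3 red and 1 green qNSC. The Pdgfra-negative aNSC had 83.3% of mural and 57.1% of endothelial markers, and the Pdgfra-positive aNSC 75% of oligodendrocyte markers. The blue cells carried ependymal or mural markers, the red cells oligodendrocyte or endothelial markers, and the green cell oligodendrocyte markers. At 4.5 months 37 of 41 cells had at least 10 counts of Xist or Tsix, the X-inactivation RNAs, against 0 of 48 cells at 2 months. At least 10 counts of Y-linked genes were found in 0 of 41 cells at 4.5 months and in 38 of 48 at 2 months, so age and sex cannot be told apart in these cells.

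Reads of the chaperonin genes were found in every group, at levels that were highest in IPC and lowest in blue qNSC. The CPM (counts per 1000000 counts of the cell) summed over the 8 subunits had a lowest, median and highest value of 3433, 5555 and 8894 in IPC, 2764, 3688 and 4380 in Pdgfra-positive aNSC, and 1469, 2875 and 4513 in Pdgfra-negative aNSC. In qNSC these were 2.98, 753 and 1980 in blue cells, 276, 1530 and 3406 in red cells, and 873, 2264 and 4178 in green cells. The ranges of neighbouring groups overlapped, but no blue cell reached the lowest Pdgfra-positive aNSC or the lowest IPC. On the log scale the mean of the 8 values of log2(CPM + 1) in a cell was 8.63 ± 0.82 in IPC, 7.96 ± 1.06 in Pdgfra-positive aNSC, 6.91 ± 0.83 in Pdgfra-negative aNSC, 3.0 ± 1.95 in blue, 4.95 ± 1.68 in red and 6.22 ± 1.79 in green qNSC (SD over cells).

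The full set of 8 subunits was read in 28 of 89 cells. It was read in 7 of 11 IPC, 6 of 7 Pdgfra-positive aNSC and 3 of 11 Pdgfra-negative aNSC, against 0 of 9 blue, 4 of 26 red and 8 of 25 green qNSC. No IPC had reads of fewer than 7 subunits and no aNSC of fewer than 6. A qNSC had reads of between 1 and 8, with a median of 5 in blue, 6 in red and 7 in green cells. After each cell was thinned to 444837 counts the medians were 7.5 in IPC, 8 in Pdgfra-positive aNSC, 7 in Pdgfra-negative aNSC, 4.5 in blue, 6 in red and 6 in green qNSC. This left out 1, 0, 3, 3, 2 and 0 cells of these groups, which were shallower. A subunit without a read in 1 cell may still have been expressed below what the library captured.

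**Figure D1:**
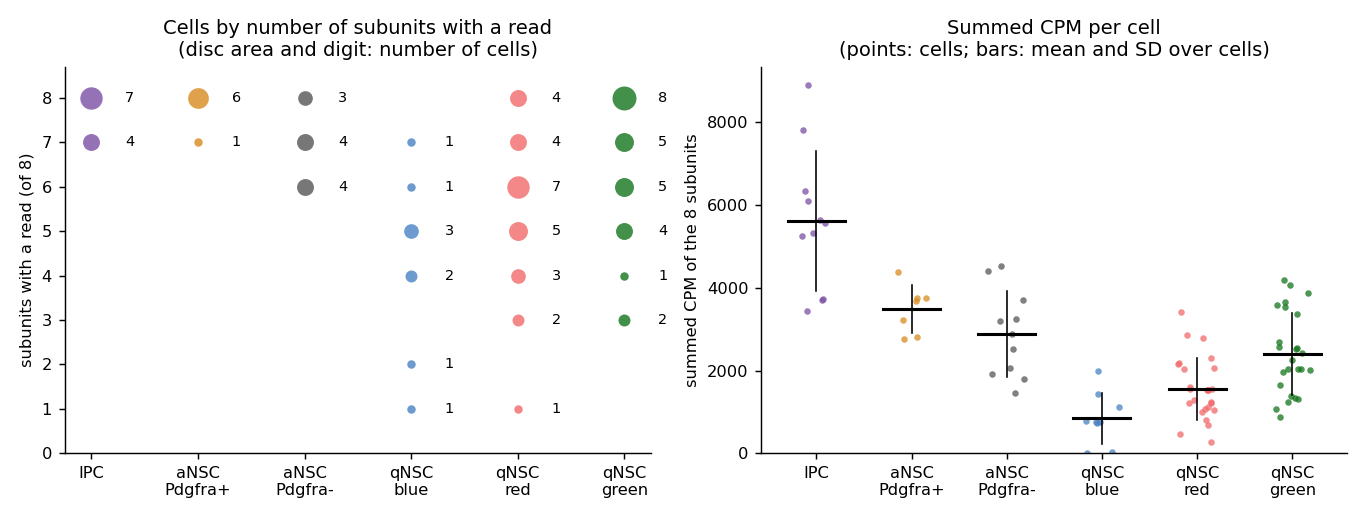
Left, the number of cells (disc area and digit) by the number of CCT subunits with a read; right, the CPM summed over the 8 subunits in each cell (points), with the mean and SD over cells (bars). IPC and aNSC cells have reads of at least 6 subunits, whereas qNSC spread from 1 to 8, and the summed CPM of IPC reaches 8894.

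Within the side of the ring that binds ATP tightly, Tcp1, the alpha subunit and the first of the family to be named, was read in 11 of 11 IPC (exact Clopper-Pearson 95% interval 71.5 to 100%). It was read in 7 of 7 Pdgfra-positive and 10 of 11 Pdgfra-negative aNSC, and in 5 of 9 blue, 17 of 26 red and 20 of 25 green qNSC. Its lowest, median and highest CPM were 300.5, 716 and 2525 in IPC, 149.6, 386 and 775 in Pdgfra-positive aNSC and 0, 267 and 916 in Pdgfra-negative aNSC. In qNSC they were 0, 2.89 and 747 in blue, 0, 63.6 and 1058 in red and 0, 317 and 1528 in green cells. Tcp1 was thus read in every IPC and Pdgfra-positive aNSC, and the highest green cell stood above every aNSC.

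Cct2, the beta subunit, which in human cells was also described as a receptor for clearing protein aggregates by autophagy, was the one read in the fewest cells. It was read in 9 of 11 IPC, 6 of 7 Pdgfra-positive and 7 of 11 Pdgfra-negative aNSC, and in 1 of 9 blue, 15 of 26 red and 14 of 25 green qNSC. Its summed CPM, the counts of a group added up and divided by the total of the group, was 209.7 in IPC (exact Poisson 95% interval 201 to 219), 77.1 in Pdgfra-negative aNSC (71.3 to 83.3) and 25.7 in blue qNSC. All of the blue counts came from 1 cell at 729 CPM.

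Cct4, the delta subunit, in which a rat mutation causes a hereditary sensory neuropathy, was read more often in aNSC with Pdgfra than in those without it, at overlapping levels. It was read in 7 of 7 Pdgfra-positive aNSC at 158 to 641 CPM and in 7 of 11 Pdgfra-negative aNSC at up to 679 CPM, with medians of 262 and 138 CPM. IPC had 0, 464 and 893 CPM as lowest, median and highest, with a read in 10 of 11. In qNSC it was read in 5 of 9 blue, 18 of 26 red and 19 of 25 green cells. Blue cells held the highest value of any qNSC for this gene, 1130 CPM in 1 cell.

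Cct5, the epsilon subunit, whose variants underlie a sensory neuropathy in humans, was the 1 of the 8 with at least 10 counts in all cells outside quiescence. Every IPC and every aNSC cell had at least 10 counts of it, 11 of 11 and 18 of 18 cells, against 33 of 60 qNSC. Its lowest, median and highest CPM were 264, 632 and 1681 in IPC, 168, 509 and 982 in Pdgfra-positive aNSC and 151, 434 and 1084 in Pdgfra-negative aNSC. They were 0, 4.26 and 316 in blue, 0, 7.45 and 619 in red and 0, 235 and 1171 in green qNSC. Among cells with at least 10 counts the median was 434 CPM in Pdgfra-negative aNSC and 266 CPM in qNSC. The groups thus differed in the share of such cells and in this median, while the levels overlapped, with green qNSC up to 1171 CPM. Thinned to equal total counts, Cct5 was read in 8 of 8 Pdgfra-negative aNSC and in 34 of 55 qNSC, which is 61.8%. The number of genes read was not made equal by this, with medians of 4054 in the thinned Pdgfra-negative aNSC and 3476 in the thinned qNSC.

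**Figure D2:**
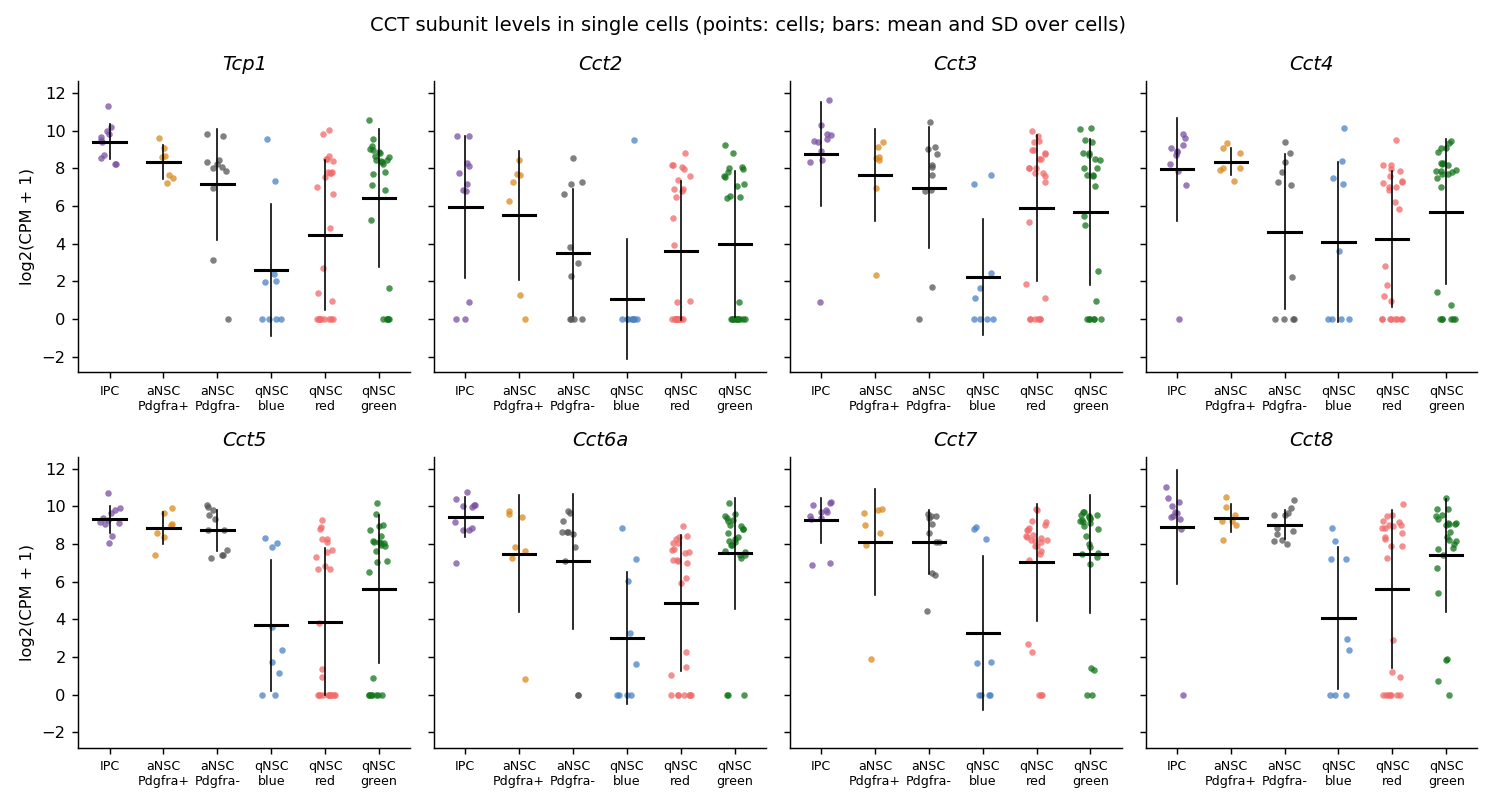
Level of each CCT subunit as log2(CPM + 1) in every cell (points), by group, with the mean and SD over cells (bars). Values at 0 are cells with no read; for Cct5 no IPC or aNSC lies there, and for Cct2 8 of the 9 blue qNSC do.

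Within the side that binds ATP weakly, Cct3, the gamma subunit, was read in 11 of 11 IPC, 7 of 7 Pdgfra-positive and 10 of 11 Pdgfra-negative aNSC. It was read in 5 of 9 blue, 20 of 26 red and 19 of 25 green qNSC. Its summed CPM was 786 in IPC, 381 in Pdgfra-positive aNSC, 402 in Pdgfra-negative aNSC, 48.0 in blue, 277 in red and 264 in green qNSC, so that red and green cells were close for this subunit.

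Cct6a, the zeta subunit, was read in 11 of 11 IPC at 125 to 1751 CPM with a median of 1006 CPM. Pdgfra-positive aNSC had 0.752, 233 and 878 CPM as lowest, median and highest, and Pdgfra-negative aNSC had 0, 394 and 871 CPM. In blue qNSC these were 0, 2.12 and 454 CPM, in red qNSC 0, 131 and 498 CPM and in green qNSC 0, 305 and 1155 CPM. The highest green cell stood above the median IPC, and the highest red cell stood below it.

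Cct7, the eta subunit, was the one read in most qNSC, in 5 of 9 blue, 23 of 26 red and 23 of 25 green cells. It was read in all 11 IPC (118, 828.7 and 1187 CPM as lowest, median and highest), all 7 Pdgfra-positive aNSC (2.76, 525 and 914 CPM) and all 11 Pdgfra-negative aNSC (20.98, 389 and 778 CPM).

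Cct8, the theta subunit, whose level was tied in human pluripotent cells to how much of the ring is assembled, was read in 10 of 11 IPC and in all 18 aNSC. Its CPM was 0, 799.8 and 2081 in IPC, 300.4, 603 and 1470 in Pdgfra-positive aNSC and 253, 463 and 1296 in Pdgfra-negative aNSC, again as lowest, median and highest. In qNSC it was read in 6 of 9 blue, 19 of 26 red and 24 of 25 green cells. Among cells with at least 10 counts, the median was 463 CPM in Pdgfra-negative aNSC and 462 CPM in qNSC, so cells that had Cct8 had about the same level in both.

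Close copies of the subunits outside the ring had few reads or none. Cct6b, the testis form of the zeta subunit, had reads in 1 Pdgfra-negative aNSC and 1 green qNSC. Cct8l1, a theta-like gene, had reads in 0 of 89 cells, where a floor of 3 counts leaves room for reads in up to 3.37% of cells. Mkks, a more distant relative that acts in assembling the BBSome of cilia, met the rule of size given below as higher in Pdgfra-positive aNSC (92.4 CPM) and in IPC (56.3 CPM) than in Pdgfra-negative aNSC (15.3 CPM).

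To set the subunits beside each other, the deposited TPM were used, which divide by transcript length. In Pdgfra-negative aNSC Cct5 came first at 538 ± 352 TPM, followed by Cct8 at 433 ± 239 TPM, and Cct2 came last at 65.1 ± 105 TPM (SD, 11 cells). In IPC the order was Cct3 (696 TPM), Cct5 (668 TPM), Cct6a (619 TPM), Cct8 (586 TPM), Tcp1 (533 TPM), Cct7 (480.2 TPM), Cct4 (377 TPM) and Cct2 (216 TPM). In Pdgfra-positive aNSC Cct8 (564 TPM) and Cct5 (555 TPM) led and Cct2 (129 TPM) was last. Cct5 held a place further down in qNSC, at 120.0 TPM in red cells, where Cct3 led with 239.8 TPM, and at 228 TPM in green cells, where Cct6a led with 293 TPM. Cct2 was last in every group but blue qNSC, where Cct3 was last at 28.6 TPM. Neighbours in each order, the first and last places included, differed by less than the larger SD over cells of the pair. That SD is the spread of cells, not the error of a mean, and the subunits were read in the same cells. The order of neighbours was therefore not tested and is a description only. In Pdgfra-negative aNSC, Cct2 had a lower TPM than Cct5 in every cell.

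Between activated and quiescent cells, the question of the first comparison, 7 of the 8 subunits were higher in Pdgfra-negative aNSC than in qNSC on the mean log2 scale (6 when centred on the median of all genes), and 1 met a rule of size. The rule took genes read in 20% or more of the cells on one side or the other, whose mean log2(CPM + 1) differed by 1 or more and whose summed CPM differed by a factor of 2 or more in the same direction. Cct5 met it, with 449 CPM in Pdgfra-negative aNSC (Poisson interval 435 to 463) and 176 CPM in qNSC (172 to 179), a ratio of 2.55. On the log scale Cct5 averaged 8.73 ± 1.11 in Pdgfra-negative aNSC and 4.57 ± 3.89 in qNSC (SD, 11 and 60 cells), a difference of 4.16. Over all 8033 genes measured, 20.4% met the rule as higher and 5.07% as lower, and 1 of 8 is not above that share. Cct8 differed by 2.91 on the log scale, but its ratio of summed CPM, 575 against 329.6, was 1.75. Tcp1 differed by 2.15, Cct3 by 1.71, Cct7 by 1.46, Cct6a by 1.42, Cct2 by 0.14 and Cct4 by -0.20.

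The median over the 8 subunits was 1.59, against 0.70 over all genes measured. Relative to that shift Cct2 stood at -0.56 and Cct4 at -0.90, and the other 6 remained above 0, with Cct5 at 3.46. A comparison with green qNSC alone, added after these values were seen because green cells had the highest subunit levels among qNSC, left Cct5 as the single subunit past the rule. It differed by 3.11, with 449 CPM in Pdgfra-negative aNSC and 223 CPM in green qNSC, a ratio of 2.01 that lies at the limit of the rule, and the call ended without any 1 of 16 of the 36 cells. There 17.9% of 8292 genes met it as higher and 6.57% as lower, and the median over the subunits was 0.68, against 0.52 over all genes.

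Between aNSC cells with and without Pdgfra, Cct4 had the largest difference of the 8. Its summed CPM was 341 in Pdgfra-positive aNSC (327 to 354) and 134 in Pdgfra-negative aNSC (127 to 142), a ratio of 2.54, and the difference was 3.73 on the log scale. It was the 1 subunit of 8 past the rule, where 25.3% of 9574 genes met it as higher and 17% as lower, so the count is not above that share. The median over the subunits was 0.53, against 0.47 over all genes. Cct2 differed by 1.99, Tcp1 by 1.18 and Cct3 by 0.67. Cct6a (0.40), Cct8 (0.35), Cct5 (0.13) and Cct7 (0.01) lay below that median of all genes and so fell under 0 when centred on it. Leaving out either 2-month cell 46 or 4.5-month cell 21 brought Cct2 past the rule too (cell numbers only name cells). The Pdgfra-positive cells carried oligodendrocyte precursor markers, Pdgfra among them, at 7719 to 17300 summed CPM, against 0 to 212 in the negative cells. Part of that contrast is set by the split itself, and the part of these markers in the values was not tested.

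IPC had more of most subunits than Pdgfra-negative aNSC. Past the rule were Cct4 (434 against 134 CPM, 3.31 on the log scale), Cct2 (209.7 against 77.1 CPM, 2.42), Cct6a (851 against 387 CPM, 2.34) and Tcp1 (774 against 322 CPM, 2.27). These 4 of 8 compare with 22.8% of 8787 genes as higher and 20.5% as lower. Cct3 missed by its ratio of 1.96, with 786 CPM in IPC and 402 CPM in Pdgfra-negative aNSC. Cct7 differed by 1.14, Cct5 by 0.60 and Cct8 by -0.12, although the summed CPM of Cct8 was 944 in IPC and 575 in Pdgfra-negative aNSC. A read of Cct8 was missing in 1 of the 11 IPC and in 0 of the 11 Pdgfra-negative aNSC. The median over the subunits was 2.04, against 0.20 over all genes. Cct6a met the rule in all but 3 of the 22 sets that left out 1 cell (4.5-month cell 17 or 2-month cells 15 and 48). Cct3 met it once 4.5-month cells 13, 17 or 21 or 2-month cells 4, 5 or 43 were left out, and Cct7 without 4.5-month cell 21.

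**Figure D3:**
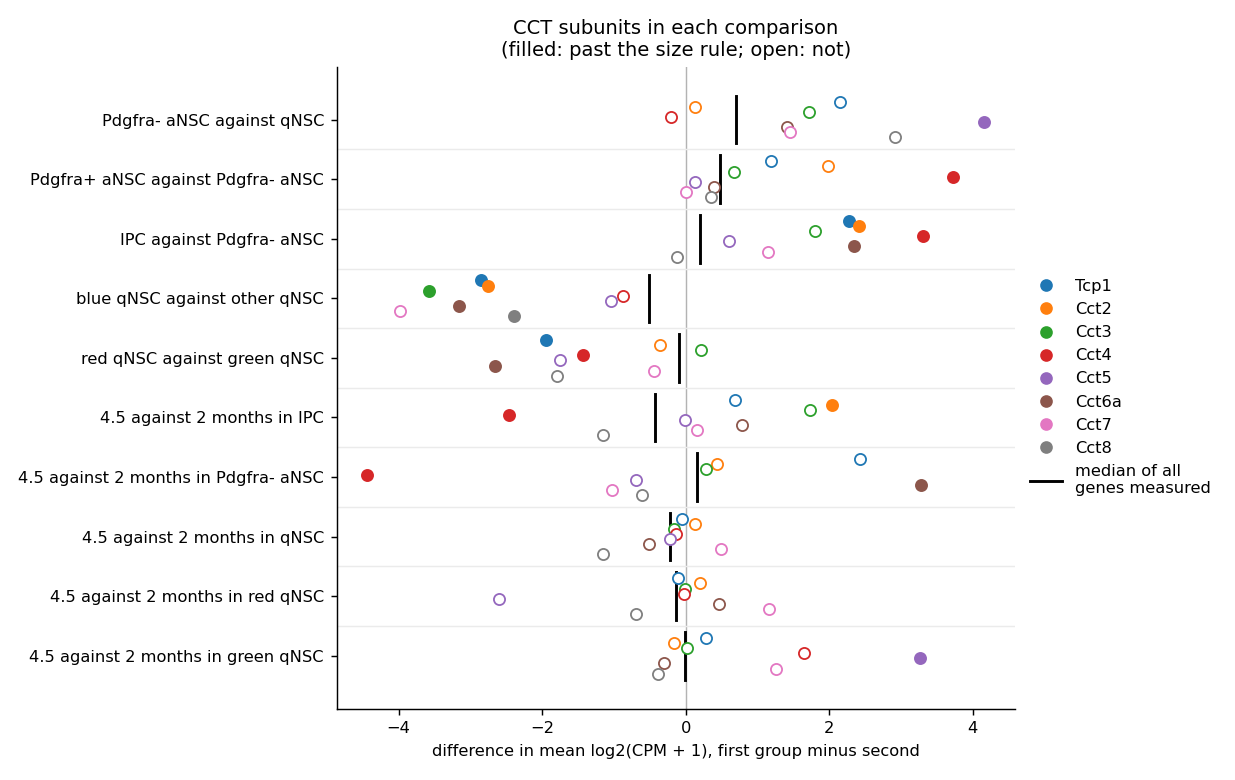
Difference in mean log2(CPM + 1) of each subunit in each comparison, first group minus second; filled points met the rule of size and black lines are the median of all genes measured. Cct5 stands at 4.16 between Pdgfra-negative aNSC and qNSC, and all 8 subunits are below the median of all genes in blue qNSC.

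The blue qNSC stood below the other qNSC in all 8 subunits on the log scale. Past the rule were Cct3 (48.0 CPM in blue and 270.2 CPM in other qNSC, a difference of -3.58), Cct6a (95.6 and 251 CPM, -3.15), Tcp1 (114 and 246 CPM, -2.85), Cct2 (25.7 and 117 CPM, -2.75) and Cct8 (169 and 352 CPM, -2.39). These 5 of 8 compare with 22.6% of 7705 genes as lower and 5.97% as higher, and the count was 3 when centred on all genes or with totals that left out the 100 most abundant genes. Cct7 had the largest difference on the log scale, -3.98, but its summed CPM of 209.8 in blue and 373 in other qNSC missed the ratio. Cct5 differed by -1.04 and Cct4 by -0.88, and for Cct4 the summed CPM was higher in blue cells, 250.2 against 171, with 1 blue cell at 1130 CPM. The median over the subunits was -2.80, against -0.51 over all genes, and blue cells also had the fewest genes with a read. Tcp1 no longer met the rule without 1 of 5 cells (4.5-month cell 11, or 2-month cells 10, 27, 28 or 42), and Cct8 without 1 of 6 (4.5-month cells 5, 8, 10 or 22, or 2-month cells 26 or 27). Cct5 and Cct7 met it without 2-month cell 10, and Cct7 also without 4.5-month cell 11.

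Red qNSC had less of 3 subunits than green qNSC. Cct6a showed the widest gap, with 127 CPM in red cells (122 to 131) and 373 CPM in green cells (365 to 380), green being 2.94 times red, and a log difference of -2.65. Tcp1 followed with 157 CPM in red and 333 CPM in green cells (-1.95), and Cct4 with 109.7 CPM in red and 232 CPM in green cells (-1.43). The 3 of 8 compare with 11.1% of 7613 genes as lower and 6.08% as higher, and the count was 1 when centred on all genes or with totals that left out the 100 most abundant genes. Cct8 (-1.80), Cct5 (-1.75), Cct7 (-0.45) and Cct2 (-0.36) were lower without meeting the rule and Cct3 differed by 0.21. The median over the subunits was -1.59, against -0.09 over all genes. Median total counts were close in both colours, 974500.5 in red and 1004307 in green cells. Tcp1 fell out of the rule without 2-month cells 12 or 42, and Cct4 without 1 of 7 cells (4.5-month cells 7, 16 or 25, or 2-month cells 8, 13, 33 or 35).

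Between the ages, none of the 8 subunits met the rule in qNSC as a whole. The differences between 28 cells of 4.5 months and 32 cells of 2 months ran from -1.15 for Cct8, whose summed CPM were 333 and 327, to 0.49 for Cct7. The median was -0.15, against -0.22 over 7247 genes, of which 3.81% were called higher and 8.10% lower. The CPM summed over the subunits had a median of 1773 in 4.5-month and 1553 in 2-month qNSC, and the cells had medians of 865575 and 1051928 total counts. Relative to the shift of all genes Tcp1, Cct3, Cct4 and Cct5 change sign, so no direction is given for them.

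Inside the colours, Cct5 is given in full because its mean log2 difference had opposite signs in green and red cells, which is a description only. Green qNSC of 4.5 months had 0, 271 and 1171 CPM as lowest, median and highest, with a read in 9 of 10 cells, against 0, 91.8 and 768 CPM and 9 of 15 cells at 2 months. Its summed CPM was 334 (322 to 346) at 4.5 months and 159 (153 to 166) at 2 months, the log difference was 3.27, and it was the 1 subunit of 8 past the rule, where 11.9% of 8779 genes were called higher and 14.3% lower, a count close to that share. Red qNSC of 4.5 months had 0, 0 and 619 CPM, with a read in 5 of 13 cells, against 0, 101 and 479 CPM and 10 of 13 cells at 2 months. There the log difference was -2.60 with summed CPM of 97.4 and 179.8, which did not meet the rule, and 10.4% of 7787 genes were called higher and 14.2% lower. The ranges of the ages overlapped in both colours, and the difference between the colours was not tested. The green call ended without any 1 of 10 of the 25 cells (4.5-month cells 2, 27 or 34, or 2-month cells 2, 6, 12, 13, 41, 42 or 47). The single green cell that carried oligodendrocyte markers was among these 4.5-month cells. In red cells Cct5 met the rule as lower once 4.5-month cells 4 or 18 or 2-month cells 31, 33 or 40 were left out. The other 7 subunits met the rule in neither colour, with Cct4 at 1.65 and Cct7 at 1.26 in green cells and Cct7 at 1.16 in red cells.

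In Pdgfra-negative aNSC Cct4 was lower and Cct6a higher at 4.5 months. The 4 cells of 4.5 months had 0, 0, 0 and 153 CPM of Cct4, against 0, 225 and 679 CPM as lowest, median and highest in the 7 cells of 2 months, a log difference of -4.43. For Cct6a the 4 cells had 394, 401, 811 and 871 CPM, against 0, 227 and 591 CPM, a log difference of 3.27. The ages overlapped for both genes. With so few cells 24% of 10129 genes were called higher and 23% lower, and 1 of 8 each way is not above those shares. Cct5 differed by -0.69, with 377 CPM at 4.5 months and 500.1 CPM at 2 months. Leaving out 1 of 4 cells (4.5-month cells 29 or 31, or 2-month cells 20 or 23) brought Cct2 past the rule as higher. Without 4.5-month cell 31 Cct3 met it as higher and Cct8 as lower, and without 2-month cell 21 Tcp1 met it as higher. The median over the subunits was -0.16, against 0.15 over all genes.

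In IPC, Cct4 was called lower and Cct2 higher at 4.5 months, each 1 of 8 and near or below the share of all genes. Cct4 had 0, 263 and 492 CPM as lowest, median and highest in the 6 cells of 4.5 months, against 419, 541, 599, 783 and 893 CPM in the 5 cells of 2 months, a difference of -2.46 that met the rule. Cct2 was higher at 4.5 months, with 0, 179.8 and 854 CPM, against 0, 0.88, 115, 278 and 308 CPM at 2 months and a difference of 2.04. The ages overlapped for both. Of 10152 genes 12.7% were called higher and 26% lower, and the median over all genes was -0.43, against 0.42 over the subunits. Cct5 was level, with 763 CPM at 4.5 months and 739 CPM at 2 months. The Cct4 call ended without 4.5-month cell 14, which had no read. The Cct2 call ended without 2-month cell 11, whose absence brought Cct3 and Cct6a past the rule as higher.

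**Figure D4:**
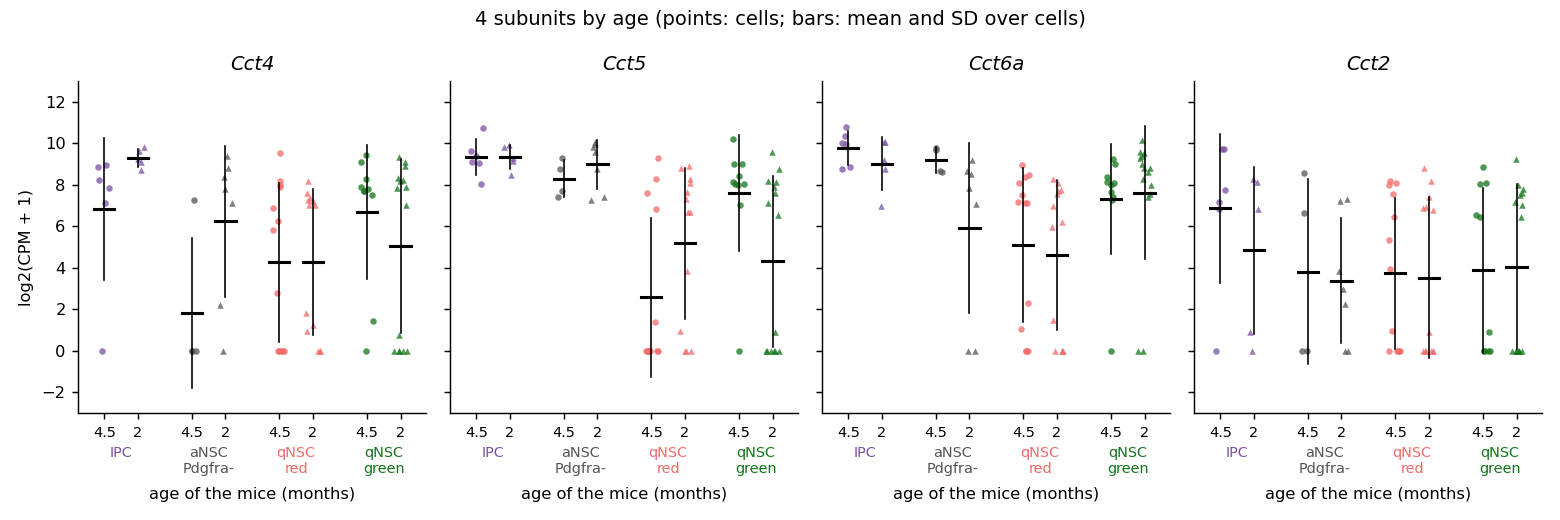
Levels of Cct4, Cct5, Cct6a and Cct2 as log2(CPM + 1) by age in IPC, Pdgfra-negative aNSC, red qNSC and green qNSC; points are cells and bars are the mean and SD over cells. In Cct5, 8 of 13 red cells of 4.5 months lie at 0, and 1 of 10 green cells of 4.5 months does; in Cct4, 3 of 4 Pdgfra-negative aNSC of 4.5 months lie at 0.

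The partners of the chaperonin were read against the shares of all genes. Between Pdgfra-negative aNSC and qNSC 73.4% of all genes were above 0, 20.4% met the rule as higher and the median was 0.70. Of 6 prefoldin genes, whose products carry actin and tubulin to the ring, 5 were above 0 and 0 met the rule between Pdgfra-negative aNSC and qNSC, with a median difference of 1.00, near those shares. Of 4 measured CCT cofactors, phosducin-like proteins and Pdcd5, 2 met the rule as higher in Pdgfra-negative aNSC. These were Pdcd5 (136 CPM in Pdgfra-negative aNSC and 58.0 CPM in qNSC) and Pdcl, which helps to assemble G protein beta subunits on CCT. Txndc9, a phosducin-like inhibitor of the ring, was lower there (38.9 against 105 CPM) and higher in IPC than in Pdgfra-negative aNSC (182 against 38.9 CPM). Tbca, which takes beta tubulin after CCT, was the 1 of 5 measured tubulin folding cofactors past the rule in Pdgfra-negative aNSC against qNSC (109.8 against 42.6 CPM). In blue qNSC 2 of 6 prefoldin genes met the rule as lower than in other qNSC, Pfdn2 (5.71 against 29.6 CPM) and Pfdn5 (18.2 against 96.6 CPM), where 22.6% of all genes did.

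Of 13 measured tubulin and actin genes, the main clients, 7 met the rule as higher and 2 as lower in IPC than in Pdgfra-negative aNSC, with a median difference of 1.71, where 22.8% of all genes were higher and 20.5% lower. In Pdgfra-positive against Pdgfra-negative aNSC 6 of 13 met it as higher and 1 as lower, with a median of 1.23, where 25.3% of all genes were higher and 17% lower. Tubb5, a beta tubulin, had 1598 CPM in IPC and 84.7 CPM in Pdgfra-negative aNSC, and Tuba1b, an alpha tubulin, was higher by 3.35 on the log scale. Tubb2a was lower by the same measure, with a difference of -5.34. Between Pdgfra-negative aNSC and qNSC, where Cct5 met the rule, 0 of 12 met it as higher and 1 as lower, Tuba4a (59.7 against 258 CPM), with a median of -0.05. Of 8 other clients, Ccne1 (cyclin E), Plk1 (a mitotic kinase) and Cdc20 (an activator of the anaphase-promoting complex) met the rule as higher in IPC. Plk1 and Cdc20 had no read in the 11 Pdgfra-negative aNSC, so they were measured through IPC alone and could only be called higher.

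Other chaperone systems were counted in the same way. Between Pdgfra-negative aNSC and qNSC, 16 of 19 genes of the cytosolic HSP70 and HSP90 system were above 0, where 73.4% of all genes were. Of these 19, 4 met the rule as higher, among them Hsp90aa1 (599.8 against 295 CPM), and this share is about the 20.4% of all genes. Of 5 mitochondrial chaperones, 5 were above 0 and 2 met the rule, Hspa9 (525 against 247 CPM) and Hspd1, a chaperonin of the bacterial type (534 against 206 CPM), with a median of 2.90. Of 11 chaperones of the endoplasmic reticulum none met it, and 2 of 31 proteasome genes did as higher. Of 7 heat-inducible genes 2 met it, Hspb1 (76.1 against 1.25 CPM) and Hspa1a (633 against 8.06 CPM). These summed CPM do not show how many cells carried the reads. Of the 7, Hsph1, Dnajb1, Hspa8 and Bag3 were also counted among the 19 genes of the HSP70 and HSP90 system. In IPC against Pdgfra-negative aNSC, 5 of 19 HSP70 and HSP90 genes and 5 of 31 proteasome genes met the rule as higher, where 22.8% of all genes did. In red against green qNSC, 2 of 19 HSP70 and HSP90 genes were past it as lower, St13 (55.4 against 136 CPM) and Cdc37 (56.2 against 115 CPM), and 0 of 31 proteasome genes, which had a median of -0.04 beside -1.59 for CCT and -0.09 for all genes, 11.1% of which were lower. In blue against other qNSC, 8 of 19 HSP70 and HSP90 genes and 14 of 31 proteasome genes were lower, with medians of -1.51 and -1.82 beside -2.80 for CCT and -0.51 for all genes, 22.6% of which were lower. In qNSC by age the medians were -0.32 for HSP70 and HSP90 genes and -0.70 for proteasome genes, beside -0.15 for CCT and -0.22 for all genes.

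**Figure D5:**
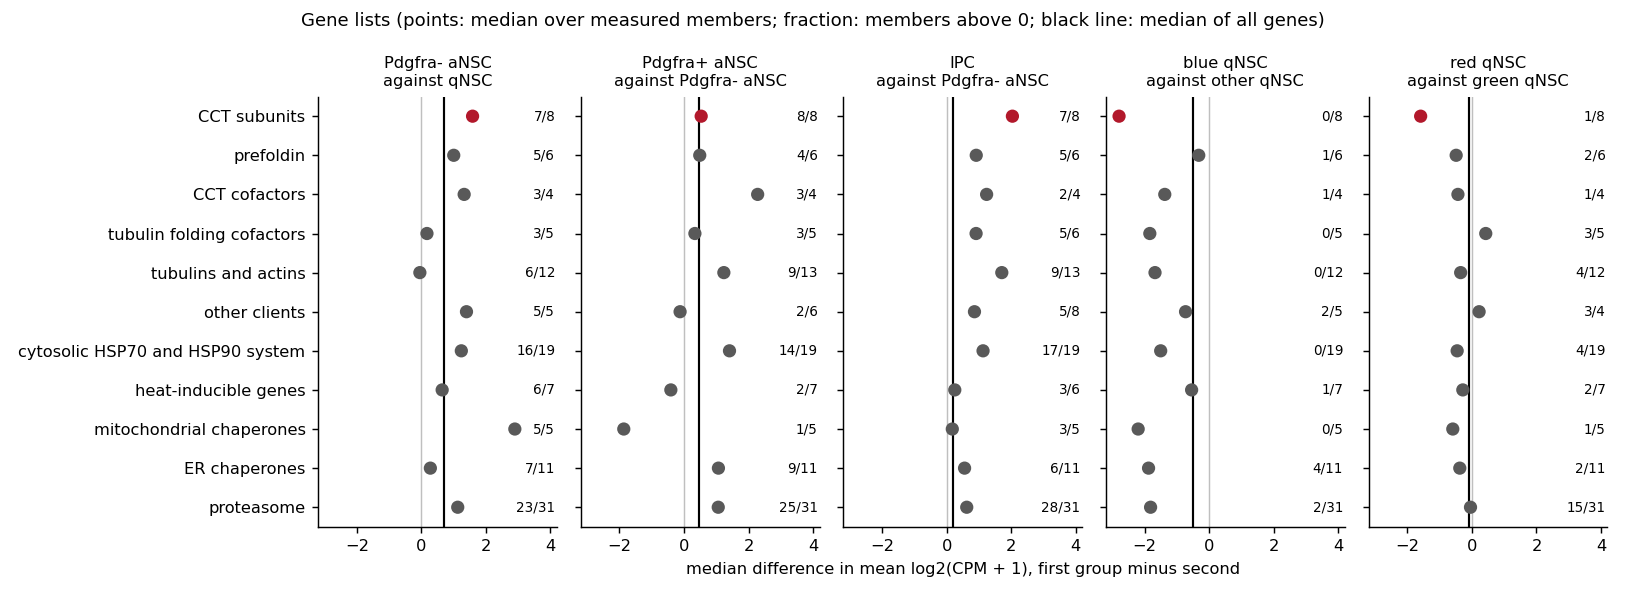
Median difference in mean log2(CPM + 1) over the measured members of each gene list in 5 comparisons, first group minus second; fractions are members above 0 of those measured and the black line is the median of all genes. CCT lies at 2.04 in IPC against Pdgfra-negative aNSC and at -2.80 in blue against other qNSC.

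Across single cells the subunits were set against one another in pairs, with no pairs of other genes beside them for reference. Cells without a read entered at 0, so how closely the subunits are tied was not tested. Pearson's r of log2(CPM + 1) over the 28 pairs of subunits ran from 0.06 to 0.44 with a median of 0.27 in all 89 cells, and from -0.09 to 0.37 with a median of 0.20 in the 60 qNSC. Cells share depth and the number of genes read, and the mean of the 8 subunits had an r of 0.61 with the number of genes read over all cells and 0.47 over qNSC, against 0.10 and 0.20 with the log of total counts. Of 7196 genes, those whose level was most like the mean of the subunits over 89 cells were Hmgb1 (r of 0.66), a chromatin protein, H3f3b (0.62), a replacement histone, Snrpe (0.57), a splicing protein, Actg1 (0.57), a cytoplasmic actin, and Calm2 (0.57), a calmodulin. The opposite pattern was shown by Cst3 (-0.68), a protease inhibitor, Hsd11b1 (-0.59) and Clu (-0.59), a secreted chaperone. Within qNSC the most alike were Cox14 (0.61), a factor of cytochrome oxidase assembly, Tubb2a (0.61), a beta tubulin, and Cnbp (0.57), and Cst3 was again at the other end (-0.53).

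In the genome (mm10), Tcp1 lies at chr17:12915701-12925067, Cct2 at chr10:117051001-117063814, Cct3 at chr3:88297116-88321767 and Cct4 at chr11:22990519-23003780. Cct5 lies at chr15:31590800-31601804, Cct6a at chr5:129786998-129846371, Cct7 at chr6:85451514-85468475 and Cct8 at chr16:87483326-87495873. The kit keeps no strand, so reads in exons shared with a neighbour cannot be assigned with certainty. Such overlaps were found for Cct6a (452 bases with Psph), Tcp1 (571 bases with Acat3 and 124 with Mrpl18), Cct7 (214 bases with Pradc1) and Cct8 (192 bases with Usp16), and for none of Cct2, Cct3, Cct4 and Cct5. Processed pseudogenes of Cct3 and Tcp1 lie on chromosome 4 and are not in the count table, so reads could be shared with them. Pseudogenes were searched by the name of the subunit only, so copies under other names, of any subunit, were not looked for.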

How the data were processed

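The estimated counts that the authors deposited, 1 value for each gene in each cell, came from STAR and RSEM on the mouse build mm10, per the submitters' processing notes, with no version or annotation given in the sources used here. The authors' second deposited table holds TPM, which divide by transcript length and sum to the same total in every cell. A further table holds their class and colour of each cell. Of the counts above 0, 4.44% were not whole (tolerance 1e-06), and counts were rounded for detection and intervals.

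Counts were divided by each cell's total and taken as log2(CPM + 1), a pseudocount that understates differences of low genes. Cells without a read enter at 0, so a difference in mean log2 also carries the share of cells with a read. It is not a fold change. For Cct5 in Pdgfra-negative aNSC against qNSC it was 4.16, and the log2 ratio of summed CPM was 1.35. For Cct7 in blue against other qNSC these were -3.98 and -0.83. The log difference was not always the larger, with -0.20 and -0.43 for Cct4 in Pdgfra-negative aNSC against qNSC. Each gene was described in each group by its mean with the SD of the cells, by how many cells had a read (95% intervals after Clopper and Pearson, exact) and by the summed CPM, the group's counts divided by its total (exact Poisson 95% interval). The reads carry no molecular identifiers and cannot be taken as separate molecules. Intervals and the limit of 3 counts behind a 0 therefore cover counting error only. No label ties cells to mice, so no test between groups and no p-value is given. Genes were called by the size rule stated with the first comparison. The members, lists and comparisons were chosen with earlier results of these data known. Text on members covers all 8; list genes named are among the up to 6 of each list with the largest differences, and alike genes are among the 10 of highest Pearson r with the mean of the subunits.

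Alternatives were a pseudocount of 10 CPM, TPM, no filter or a filter of 50% of cells, totals without the 100 most abundant genes, centring on all genes, summed CPM, thinning of cells to equal depth (seed 7), leaving out 8 cells with at least 50% of the markers of another cell type at 10 counts, and leaving out each cell in turn, which was added after the values were seen. The procedure was run on counts simulated after the qNSC of both ages, with fold changes above the limit of the rule. Smaller groups and changes near that limit were not simulated, so the run does not show how reliable calls are there. Python 3.11.15, numpy 2.4.6, pandas 2.3.3 and scipy 1.17.1 were used. Gene positions are from GENCODE on GRCm38 and promoter sequences from RefSeq on GRCm38.p6.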

Additional observations from a re-analysis of the deposited data

Results flagged for a closer look

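In groups of 4 to 10 cells, 63 sets of log2(CPM + 1) values were searched for a single cell far from the rest (Dixon's 95% critical value), and 16 were found, where chance gives about 1 in 20; values at 0 are cells without a read, and the shape of such data differs from what the critical values assume. In Pdgfra-positive aNSC, 4.5-month cell 36 was lowest for Cct3 at 2.36 (next cell 6.95) and for Cct7 at 1.91 (next 7.94), and 2-month cell 46 was lowest for Cct6a at 0.81 (next 7.26). In blue qNSC, 4.5-month cell 20 had Cct2 at 9.51 and the other 8 cells had 0. In IPC of 4.5 months, cell 24 was lowest for Cct2 at 0 and for Cct7 at 7.01, cell 14 for Cct4 at 0 and cell 12 for Cct8 at 0. In IPC of 2 months, cell 5 was lowest for Cct3 at 0.91 and for Cct7 at 6.89.

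In Pdgfra-negative aNSC of 4.5 months, cell 29 was highest for Tcp1 at 9.71 and cell 23 was the 1 of 4 with Cct4, at 7.26. In Pdgfra-negative aNSC of 2 months, cell 48 was lowest for Cct3 at 0. In green qNSC of 4.5 months, cell 28 was lowest for Cct5 at 0 and for Cct6a at 0, and cell 39 for Cct7 at 1.43.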

How the results depend on the processing

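No paired analysis was possible because no label ties cells to mice. The cell numbers were given in accession order and pair nothing, and the results come from no test. Of 220 recomputed medians and counts over the 8 subunits, 202 stayed within the SD over cells or within 1.5 times the count, and 18 moved. Of 814 values for single subunits and the added comparison with green qNSC, 9 moved. The SD over cells was wide, for example 3.89 for Cct5 in qNSC. A value not called could change sign and still count as within it, so these counts say little about how stable the values are. With TPM, 2 subunits met the rule as higher in Pdgfra-negative aNSC than in qNSC, against 1 with CPM. With summed CPM the median in IPC against Pdgfra-negative aNSC was 1.05, against 2.04. Subunits lower in red than in green qNSC numbered 1, against 3, and those lower in blue than in other qNSC 3, against 5, both with totals without the 100 most abundant genes and when centred on all genes. In 4.5-month against 2-month Pdgfra-negative aNSC the median was 0.40 with summed CPM, against -0.16, and 3 subunits were higher with summed CPM and with thinned cells, against 1. In green qNSC by age the count was 0 without cells with markers of other types, against 1. Leaving out each cell in turn gave medians of 1.34 to 2.10 and a count of 1 in Pdgfra-negative aNSC against qNSC, 0.33 to 1.01 and 1 to 2 in Pdgfra-positive against Pdgfra-negative aNSC, 1.46 to 2.32 and 3 to 6 in IPC against Pdgfra-negative aNSC, -1.77 to -1.41 and 2 to 3 in red against green qNSC, and -3.11 to -2.57 and 3 to 6 in blue against other qNSC. By age these were -0.33 to 0.03 and 0 in qNSC, -0.18 to 0.61 and 0 to 1 in green qNSC, -0.42 to 0.30 and 0 to 1 in red qNSC, -0.83 to 0.51 and 1 to 3 in Pdgfra-negative aNSC, and 0.07 to 0.64 and 1 to 2 in IPC. Medians by age, none of them called, changed sign between settings: in qNSC -0.15 against 0.07 (centred, and summed CPM) and 0.23 (thinned), in green qNSC 0.15 against -0.02 (summed CPM) and -0.18 (without cells with markers of other types), in red qNSC -0.02 against 0.12 (centred), 0.04 (pseudocount of 10), 0.50 (summed CPM) and 0.11 (thinned), and in Pdgfra-negative aNSC as given, so no direction is drawn from them. The call of Cct5 against green qNSC ended with totals without the 100 most abundant genes, centring, thinning, and without any 1 of 16 cells. The cause of these shifts was not tested.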
